A study of Homo sapiens with 8 samples.

Results

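The response described here is the change in gene expression between day 2 and day 0 of doxycycline, averaged over a pair of T47D breast carcinoma cell lines. T47D is an established line of luminal, hormone receptor-positive breast cancer cells. It compares all 4 day 2 arrays with all 4 day 0 arrays of the 8 arrays in the series, with the line as a covariate, over the 21214 probe sets that carry a gene symbol out of 33297 in the table. One line had been infected with a lentivirus carrying a conditional hairpin RNA (shRNA) against EglN2 (the prolyl hydroxylase also called PHD1), and the other with a conditional Scr control hairpin. Total RNA was taken without doxycycline (0 h, day 0) or after 48 h with doxycycline at 1 ug/ml (day 2), on 2 arrays for each line and day. Every cell in the comparison therefore carried a lentiviral hairpin, and every day 2 cell, control line included, had received the drug. No array of untreated cells at 48 h was analysed here, so the drug, the induction of a hairpin and 2 days of culture cannot be told apart. The labels do not say whether a line is 1 clone. They also leave unsaid whether the replicates were grown separately, and each p-value rests on the spread of these particular arrays, which may be technical.

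Doxycycline is a tetracycline that switches on conditional hairpin vectors, and it also inhibits protein synthesis on mitochondrial ribosomes. Cells that lack amino acids, or whose mitochondria or endoplasmic reticulum are stressed, phosphorylate the translation factor eIF2, and this raises translation of the transcription factor ATF4. ATF4 is known for inducing enzymes that make serine and asparagine, the folate enzymes that carry one-carbon units in mitochondria, amino acid transporters, and the synthetases that load amino acids onto tRNAs.

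The deposited values are log2 levels after robust multi-array averaging (RMA), so a change of 1 is a doubling. The median level over named probe sets lay between 7.81 and 7.86 in the 8 arrays, and replicates of a group correlated at 0.992 to 0.996 across probe sets. Along the first principal component (35.3% of the variance) replicate 1 of Scr day 0 stood at -26.6, with the other 7 arrays between -9.3 and 20.1. Along the second (17%) replicate 1 of EglN2 shRNA day 2 stood at -21.9. As a check of the labelled cells, the 15 luminal epithelial markers had mean levels of 8.36 to 14.1, and their summed level was 16.37 to 16.44 at day 0 and 16.34 to 16.38 at day 2. The 14 leukocyte and endothelial markers were dim, with 8 of 14 below a mean level of 6 and a summed level of 10.1 to 10.34 at day 0 and 10.04 to 10.2 at day 2. The 12 basal and mesenchymal markers had mean levels of 5.11 to 12.3, with 3 below 6. They summed to 12.1 to 13.62 at day 0 and 12.68 to 13.5 at day 2.

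At day 2 the genes that rose included serine synthesis and folate enzymes, asparagine synthetase, the cysteine tRNA synthetase, liver-type glycogen phosphorylase and collagen XII, while CYP1B1 and NQO1 fell. Across all named probe sets, limma's moderated test with Benjamini-Hochberg adjustment (adjusted p under 0.05) called 23 probe sets higher at day 2, which is 0.108% of those tested and stands for 22 genes. It called 2 lower, or 0.00943%. The changes called ranged in size from 0.50 to 1.09, beside a median standard error of 0.09 and a median change of 0 over all probe sets. In each of the 25, all 4 day 2 arrays lay on the same side of all 4 day 0 arrays, a separation seen upward in 632 and downward in 448 of all probe sets. At an unadjusted p under 0.05, 1282 probe sets were higher (6.04%) and 822 lower (3.87%). Both day 2 arrays lay above both day 0 arrays within each line for 5.24% of probe sets and below them for 4.07%. The change was above 0 for 48.4% of probe sets. The bulk RNA does not separate a change in RNA per cell from a change in the share of cells that make it.

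The number of calls depended on single arrays, whereas the sizes of the called changes moved little. Without replicate 1 or replicate 2 of Scr day 0 the same limma test called 3 and 5 probe sets. Without replicate 1 or 2 of Scr day 2 it called 0 and 1, and without replicate 1 or 2 of EglN2 shRNA day 0 it called 1 and 3. Without replicate 1 of EglN2 shRNA day 2 it called 46, of which 42 were higher and 23 belonged to the 25, and without replicate 2 of that group it called 0. ARHGAP15 remained called in 6 of these 8 settings and PYGL in 4 of 8. Of the others, PLAAT2, ALDH1L2 and SERPINA1 remained in 2, ULBP1 in 0 and the rest in 1. None of the 25 was called when the unnamed probe sets were tested too, where the smallest adjusted p was 0.12 with 2565 probe sets at an unadjusted p under 0.05. The plot of changes with 1 array left out gives both ranges for each called probe set.

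**Figure D1:**
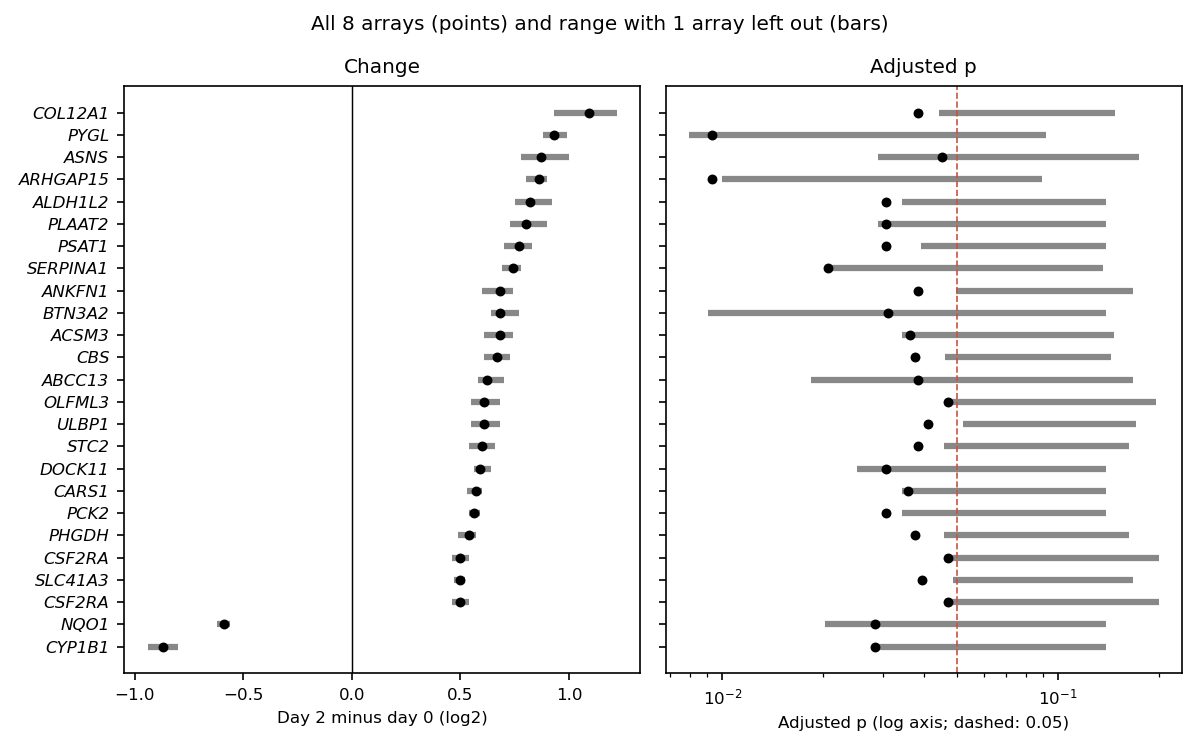
Change from day 0 to day 2 (left, log2) and limma adjusted p (right, log axis, dashed line at 0.05) for the 25 called probe sets, with all 8 arrays (points) and the range when each array in turn was left out (bars). The change of COL12A1 ranged from 0.93 to 1.22 and that of CYP1B1 from -0.94 to -0.80, while the adjusted p of ULBP1 stayed above 0.05 in all 8 settings.

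Among the aminoacyl-tRNA synthetases, which attach each amino acid to its tRNA, the cytosolic enzymes had mostly positive changes and the mitochondrial enzymes did not; the difference between these lists was not tested. Of 19 cytosolic synthetases measured, 14 had a positive change, 1 (CARS1) passed the limma test over all probe sets, 10 were higher at an unadjusted p under 0.05, and none was lower at that level. Their median change was 0.16 (0.20 in the Scr line and 0.18 in the EglN2 shRNA line). Of 16 mitochondrial synthetases, 8 had a positive change, 1 was higher at that level, and the median was 0. Beside the counts of these and later lists, 6.04% of all probe sets were higher and 3.87% lower at that level, and 48.4% had a positive change. RefSeq promoters (GRCh38.p14, 250 bases before to 50 after a start) were searched on both strands for TTGCATC, the core of a C/EBP-ATF composite element, and for TGATG, which overlaps it when read from the other strand. TTGCATC was present for 7 of the 16 cytosolic synthetase genes with an entry (43.8%), 0 of 14 mitochondrial ones, 5 of 28 genes of the ATF4 list described below (17.9%), and 2.99% of all 27305 genes. The 7 genes were AARS1, CARS1, EPRS1, IARS1, MARS1, NARS1 and TARS1, with changes of 0.16 to 0.57 (median 0.34), against -0.15 to 0.39 (median 0.09) for the 9 without it. This contrast was not tested. In the ATF4 list the 5 genes with TTGCATC were CEBPG, CHAC1, FGF21, JDP2 and PPP1R15B. Their changes ran from -0.04 to 0.38, and none was called. TTGCATC was also present for 1 of 10 serine and folate genes with an entry and for 2 of 19 genes called higher. A match describes letters in a window, not a bound site. The promoters of the synthetases with the smallest p among those that hold TTGCATC are shown, with that of ASNS, the gene of asparagine synthetase, which holds TGATG but not TTGCATC. Each runs from 200 bases before to 30 after the start, and capitals mark the matches to TTGCATC and TGATG on either strand. They are CARS1 at chr11:3057394-3057623 (minus strand), AARS1 at chr16:70289477-70289706 (minus strand), TARS1 at chr5:33440765-33440994 (plus strand) and ASNS at chr7:97872379-97872608 (minus strand).
CARS1: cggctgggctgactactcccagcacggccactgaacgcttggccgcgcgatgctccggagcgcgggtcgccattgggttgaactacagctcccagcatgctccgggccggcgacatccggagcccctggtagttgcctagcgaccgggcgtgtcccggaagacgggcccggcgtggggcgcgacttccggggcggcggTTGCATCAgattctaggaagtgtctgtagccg
AARS1: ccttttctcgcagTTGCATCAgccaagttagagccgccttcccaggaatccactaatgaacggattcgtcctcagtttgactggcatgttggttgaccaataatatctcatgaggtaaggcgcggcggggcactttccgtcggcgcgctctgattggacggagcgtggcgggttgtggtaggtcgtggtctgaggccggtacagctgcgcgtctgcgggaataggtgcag
TARS1: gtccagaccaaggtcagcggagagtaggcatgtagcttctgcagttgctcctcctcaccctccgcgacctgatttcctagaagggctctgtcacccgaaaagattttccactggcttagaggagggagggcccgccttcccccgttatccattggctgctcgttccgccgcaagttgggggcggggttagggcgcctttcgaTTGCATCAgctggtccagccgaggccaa
ASNS: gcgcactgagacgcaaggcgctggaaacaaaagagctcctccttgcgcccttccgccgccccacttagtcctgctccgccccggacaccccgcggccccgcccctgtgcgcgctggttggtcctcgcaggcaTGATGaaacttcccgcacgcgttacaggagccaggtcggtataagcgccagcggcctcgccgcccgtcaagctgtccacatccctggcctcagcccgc
The match begins 2 bases before the start in CARS1 and 187 bases before it in AARS1, and in ASNS TGATG begins 68 bases before it. TGATG, with or without TTGCATC, was found for 37.7% of all genes. It was found for 8 of 28 genes of the ATF4 list (28.6%), 11 of 16 cytosolic synthetase genes (68.8%) and 10 of 19 genes called higher (52.6%). GCGTG, the core of a xenobiotic response element, was searched too and found for 40.6% of all genes. It was present for 13 of 16 cytosolic (81.2%) and 12 of 14 mitochondrial synthetase genes (85.7%), and 13 of 19 genes called higher (68.4%).

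CARS1, the cysteine enzyme, read 9.52 and 9.65 in the Scr day 0 arrays and 10.10 and 10.14 at day 2, and 9.70 and 9.87 rising to 10.31 and 10.47 in the EglN2 shRNA line. The change was 0.57 ± 0.08 (SE, 4 against 4 arrays), a 1.48-fold rise with a limma adjusted p of 0.0358, and no day 0 array reached a day 2 array. AARS1, the alanine enzyme, read 11.76 to 12 at day 0 and 12.16 to 12.47 at day 2. Its groups did not overlap either, but its change of 0.44 ± 0.07 had a limma adjusted p of 0.0549. For TARS1 (threonine) the change was 0.52 ± 0.09 with an adjusted p of 0.0647, and for GARS1 (glycine) 0.39 ± 0.07 with 0.0863 (limma). Those of MARS1 (methionine) and YARS1 (tyrosine) were 0.34 and 0.41. At the other end of the list KARS1 (lysine) had a change of -0.02, HARS1 (histidine) -0.07 and RARS1 (arginine) -0.15. RARS1 was 0.09 in the Scr line and -0.40 in the EglN2 shRNA line.

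The enzymes of serine synthesis and of the mitochondrial folate cycle gave 3 calls, where 0.108% of all probe sets were called higher. The lists were chosen with earlier results of these data known, so their numbers of calls cannot rank the pathways. Of 14 measured, 11 had a positive change, 3 rose past the limma threshold (PSAT1, PHGDH and ALDH1L2), 8 were higher at an unadjusted p under 0.05, none was lower at that level, and the median change was 0.26. PHGDH, the first enzyme of the pathway from the glycolytic intermediate 3-phosphoglycerate, read 10.65 and 10.82 in Scr day 0 arrays and 11.38 and 11.30 at day 2. In the EglN2 shRNA line it read 10.93 and 11.02, then 11.48 and 11.42. All day 2 arrays were above all day 0 arrays, and the change was 0.54 ± 0.08 (limma adjusted p 0.0375). A second PHGDH probe set had a change of 0.02. PSAT1, the aminotransferase of the second step, read 9.70 and 10.02 then 10.68 and 10.53 in the Scr line, and 10.26 and 10.47 then 11.29 and 11.01 in the EglN2 shRNA line. The EglN2 shRNA line was already higher at day 0, so that its higher day 0 array (10.47) lay just below the lower Scr day 2 array (10.53). The rise was 0.77 ± 0.10, or 1.7-fold, with a limma adjusted p of 0.0307, and it was 0.74 in the Scr line and 0.78 in the EglN2 shRNA line. PSPH, the phosphatase of the last step, had a change of 0.56 ± 0.09 with a limma adjusted p of 0.066, at 0.74 in the Scr line and 0.38 in the EglN2 shRNA line, and its second probe set 0.36 ± 0.07.

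ALDH1L2, which oxidises 10-formyl-tetrahydrofolate in mitochondria, read 8.66 and 8.29 then 9.26 and 9.09 in the Scr line, and 8.46 and 8.57 then 9.35 and 9.57 in the EglN2 shRNA line. The lowest day 2 array stood above the highest day 0 array, and the rise was 0.82 ± 0.11 (limma adjusted p 0.0307). The other mitochondrial folate enzymes had smaller positive values that did not pass. SHMT2, which moves a carbon from serine to folate, had a change of 0.37 ± 0.07, MTHFD2 one of 0.36 ± 0.08 and MTHFD1L one of 0.29 ± 0.07, with the 4 day 2 arrays above the 4 day 0 arrays for SHMT2 (11.95 to 12.21 against 11.57 to 11.86). Their cytosolic counterparts were closer to 0, at 0.13 ± 0.09 for SHMT1 and -0.08 ± 0.08 for MTHFD1. ALDH1L1, the cytosolic relative of ALDH1L2, had a change of -0.05, and thymidylate synthase (TYMS) -0.01. Whether the mitochondrial and cytosolic enzymes differ was not tested.

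**Figure D2:**
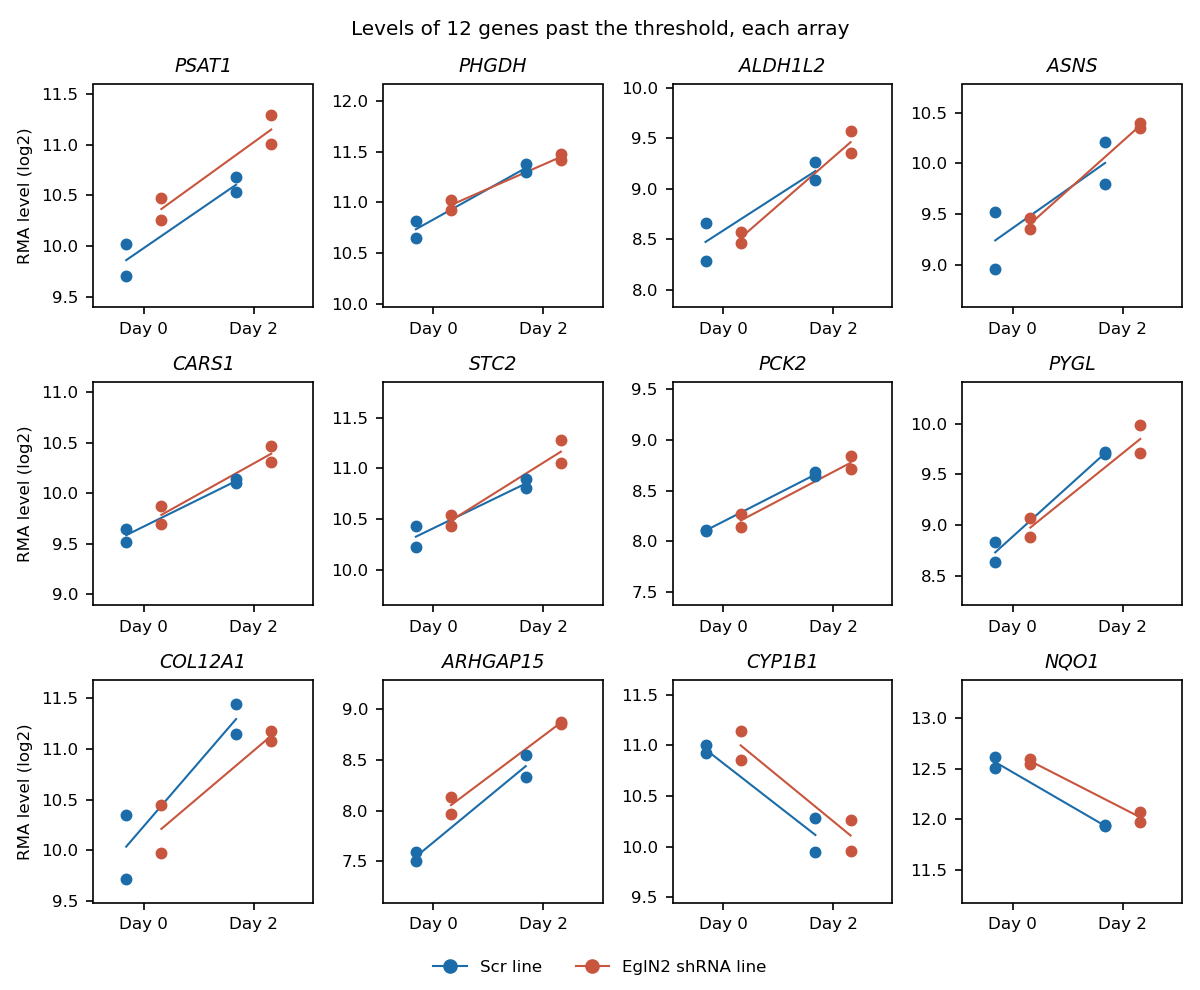
RMA level (log2) on each array at day 0 and day 2 for 12 genes past the limma threshold, with the Scr line in blue and the EglN2 shRNA line in red, lines joining the means of 2 arrays, and vertical axes of equal span. In every panel the 4 day 2 arrays lie on one side of the 4 day 0 arrays, above for the first 10 genes and below for CYP1B1 and NQO1.

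ASNS, which makes asparagine from aspartate and glutamine, rose. It read 8.96 and 9.52 in Scr day 0 arrays, 10.21 and 9.80 at day 2, 9.35 and 9.46 in EglN2 shRNA day 0 arrays, and 10.35 and 10.40 at day 2. The lowest day 2 array (9.80) exceeded the highest day 0 array (9.52), and the change was 0.87 ± 0.13, or 1.82-fold (limma adjusted p 0.0451). Of the 7 enzymes of asparagine, proline and glutamine metabolism measured, all 7 had a positive change and 1 passed. PYCR1, the last enzyme of proline synthesis, had a change of 0.32 ± 0.09.

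Amino acid transporters of the plasma membrane did not move as one. Of 17 measured, 11 had a positive change, none passed, 4 were higher and 1 lower at an unadjusted p under 0.05, and the median was 0.09. SLC7A11, the cystine importer, had the largest value of the list. It read 6.94 and 8.18 in Scr day 0 arrays, 8.79 and 8.93 at day 2, 7.91 and 8.51 in EglN2 shRNA day 0 arrays, and 9.07 and 9.47 at day 2. Its day 2 arrays stood above its day 0 arrays, but the day 0 replicates were far apart, and the change of 1.18 ± 0.23 had a limma adjusted p of 0.11. SLC7A5, a carrier of large neutral amino acids, had a change in the other direction of -0.43 ± 0.08 (limma adjusted p 0.0981), with similar values of -0.44 and -0.42 in the Scr and EglN2 shRNA lines. SLC43A1, another carrier of large neutral amino acids, had a change of 0.47 ± 0.10, and SLC3A2, the partner chain of SLC7A5 and SLC7A11, one of -0.12 ± 0.08.

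ATF4 itself, its upstream eIF2 kinases and other genes of the stress response formed a list of 31. Of these 24 had a positive change, 3 rose past the limma threshold (PCK2, CBS and STC2), 13 were higher and 1 lower at an unadjusted p under 0.05, and the median was 0.18. ATF4 has 2 probe sets, and the brighter one read 11.31 and 11.50 then 11.86 and 11.74 in the Scr line, and 11.51 and 11.56 then 12.03 and 12 in the EglN2 shRNA line. No day 0 array overlapped a day 2 array there, and the change was 0.44 ± 0.08 with a limma adjusted p of 0.0685. The other ATF4 probe set had a change of 0.21 ± 0.09. DDIT3, which encodes the stress factor CHOP, had a change of 0.46 ± 0.10, and NUPR1, a small stress-induced nuclear protein, one of 0.54 ± 0.09. Several genes often used as readouts of ATF4 activity stayed near 0. TRIB3, a pseudokinase, had a change of -0.02 (95% interval -0.22 to 0.18), ATF3 one of 0 (-0.21 to 0.21), and CTH, the enzyme after CBS in cysteine synthesis, one of -0.08 ± 0.09. ATF5, a relative of ATF4, had a change of -0.32 ± 0.11.

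PCK2, the mitochondrial phosphoenolpyruvate carboxykinase, read 8.10 and 8.11 then 8.68 and 8.64 in the Scr line, and 8.14 and 8.27 then 8.84 and 8.71 in the EglN2 shRNA line. It rose by 0.56 ± 0.07 (limma adjusted p 0.0307), and the lines' own changes were 0.56 and 0.57. STC2, a secreted glycoprotein, rose by 0.60 ± 0.09 from 10.22 to 10.54 at day 0 to 10.81 to 11.28 at day 2 (limma adjusted p 0.0382). CBS, which joins serine to homocysteine, shares its probe set with LOC102724560, so their signals cannot be separated. That probe set read 8.30 and 8.39 then 8.77 and 8.84 in the Scr line, and 8.39 and 8.35 then 9.29 and 9.21 in the EglN2 shRNA line. The 4 day 0 arrays were nearly equal, and the rise of 0.67 ± 0.09 (limma adjusted p 0.0375) was 0.46 in the Scr line and 0.88 in the EglN2 shRNA line. The difference of 0.42 (95% interval 0.10 to 0.74) had an adjusted p of 0.676 over all probe sets (limma).

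Genes of the mitochondrial translation and respiratory machinery had median changes near 0. Of 77 mitochondrial ribosomal proteins 40 had a positive change, 1 was higher and 5 lower at an unadjusted p under 0.05, none passed, and the median was 0.01. Of 55 nuclear-encoded respiratory chain subunits, 2 were higher and 3 lower at that level, none passed, and the median was 0.01. The gene furthest from 0 among the ribosomal proteins was MRPS33, a small-subunit protein, at -0.57 ± 0.13 (limma adjusted p 0.186). It was -0.27 in the Scr line and -0.87 in the EglN2 shRNA line. Mitochondrial chaperones and proteases, which fold and degrade proteins of the matrix, numbered 17, of which 14 had a positive change, none passed and 4 were higher at an unadjusted p under 0.05. Among them GRPEL2, a co-chaperone, had a change of 0.39 ± 0.09, TRAP1, a mitochondrial HSP90, one of 0.33 ± 0.07 (-0.06 ± 0.10 for its second probe set), and LONP1, a matrix protease, one of 0.19 ± 0.08, while HSPD1, the matrix chaperonin, had one of -0.05 ± 0.08.

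**Figure D3:**
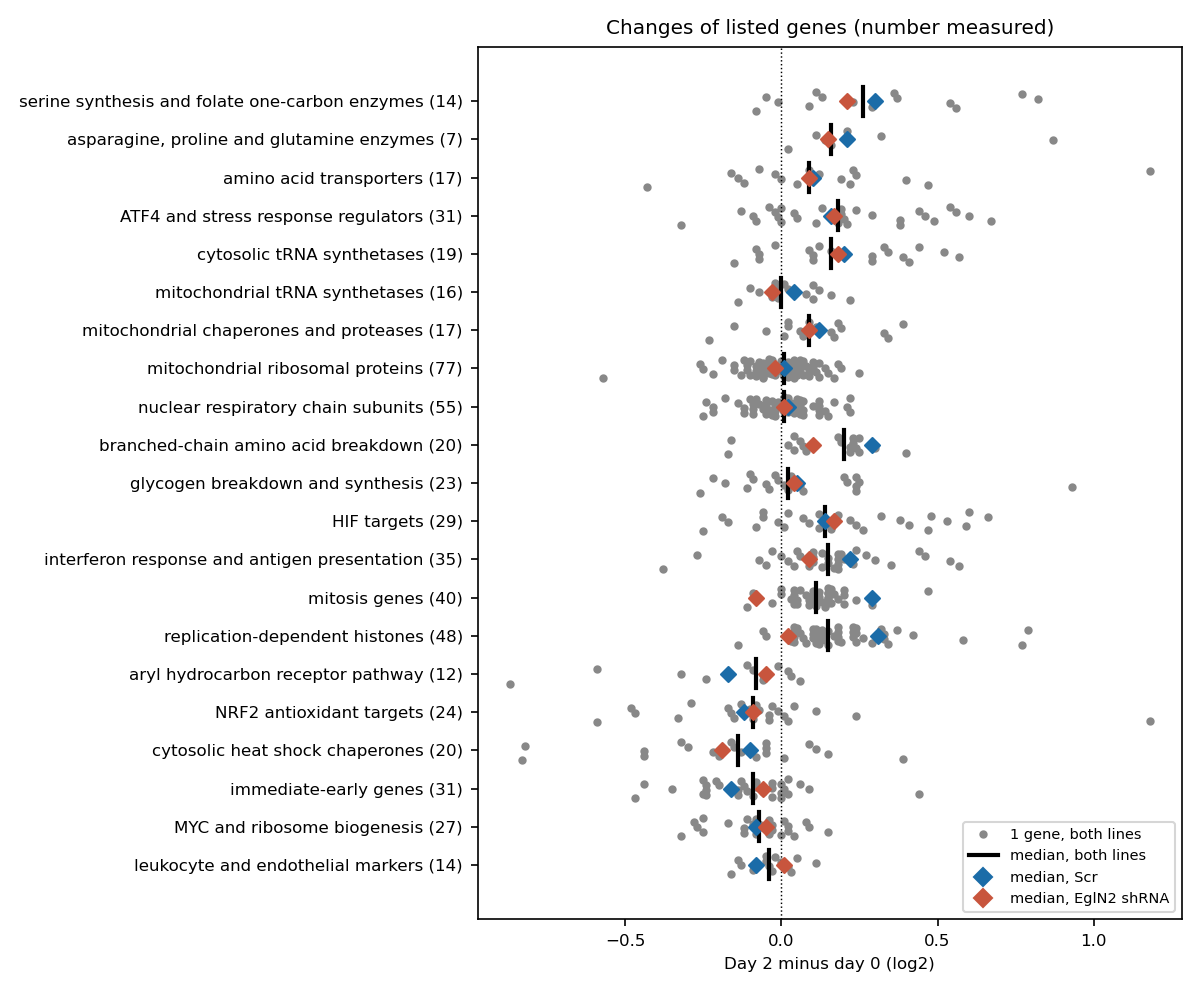
Change from day 0 to day 2 (log2) of each measured gene of 21 gene lists (grey points, 1 probe set a gene), with the median over both lines (black bars) and the medians in the Scr (blue) and EglN2 shRNA (red) lines, and the number of genes measured in brackets. The list of serine and folate enzymes has a median of 0.26 and the cytosolic heat shock chaperones -0.14, and for mitosis genes the Scr line stands at 0.29 and the EglN2 shRNA line at -0.08.

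PYGL, liver-type glycogen phosphorylase, which releases glucose units from glycogen, rose with one of the smallest adjusted p-values of all genes. It read 8.63 and 8.83 in Scr day 0 arrays, 9.72 and 9.70 at day 2, 8.88 and 9.07 in EglN2 shRNA day 0 arrays, and 9.71 and 9.99 at day 2. The gap between the highest day 0 array (9.07) and the lowest day 2 array (9.70) exceeded the spread over the 4 arrays of either day. The change was 0.93 ± 0.09 (95% interval 0.73 to 1.13), or 1.9-fold, with a limma adjusted p of 0.0093. It was 0.98 in the Scr line and 0.87 in the EglN2 shRNA line. The adjusted p rose above the threshold without replicate 1 of Scr day 2 (0.0923), replicate 2 of Scr day 2 (0.0529), replicate 1 of EglN2 shRNA day 0 (0.0865) or replicate 2 of EglN2 shRNA day 2 (0.0718). The other 22 genes of glycogen metabolism measured did not pass, and the list's median was 0.02. PYGB, the brain-type phosphorylase, had a change of -0.22 ± 0.08 and PYGM, the muscle type, -0.02 ± 0.08. The phosphorylase kinase subunits PHKG2 and PHKB each had a change of 0.24, and glycogen synthase 1 (GYS1) one of 0.01.

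Other metabolic lists had medians above 0 and few or no calls. Of 20 genes of branched-chain amino acid breakdown 18 had a positive change, none passed and 10 were higher at an unadjusted p under 0.05. The median of 0.20 was 0.29 in the Scr line and 0.10 in the EglN2 shRNA line. ACAD8 and HIBADH, mitochondrial dehydrogenases of valine breakdown, had changes of 0.40 ± 0.09 and 0.30 ± 0.07. Of 29 targets of the hypoxia-inducible factors (HIF), 22 had a positive change, 1 passed (STC2, also in the ATF4 list), 12 were higher and 3 lower at an unadjusted p under 0.05, and the median was 0.14. PDK1, which inhibits pyruvate dehydrogenase, had a change of 0.59 ± 0.10 (limma adjusted p 0.0726), while the glucose transporter SLC2A1 had -0.17 ± 0.07 and the hypoxia-induced hydroxylase EGLN3 -0.08 ± 0.09. NDRG1 had a change of 0.66 with a standard error of 0.28, and replicate 1 of EglN2 shRNA day 2 read 10.14 where the other 3 day 2 arrays read 7.85 to 8.66. Of 17 glycolysis genes none passed, and the median was 0.03. ALDOC, a brain-type aldolase, had a change of 0.68 ± 0.11 (limma adjusted p 0.0583).

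COL12A1, a fibril-associated collagen chain, had the largest change of any called probe set. It read 10.35 and 9.72 in Scr day 0 arrays, 11.44 and 11.15 at day 2, 10.45 and 9.97 in EglN2 shRNA day 0 arrays, and 11.08 and 11.18 at day 2. In both lines replicate 2 was the lower day 0 array, and every day 2 array exceeded 11. The change was 1.09 ± 0.16, or 2.13-fold (limma adjusted p 0.0382), at 1.26 in the Scr line and 0.92 in the EglN2 shRNA line. No other collagen or collagen-modifying gene of the 23 measured passed, and the list's median was 0.02. The prolyl 4-hydroxylase subunits P4HA1 and P4HA2 had changes of 0.48 ± 0.10 and 0.47 ± 0.09, and the lysyl hydroxylase PLOD2 one of 0.41 ± 0.11. The fibrillar collagen COL1A1 had one of 0.07.

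ARHGAP15, a GTPase-activating protein for Rac, shared the smallest adjusted p with PYGL. It read 7.5 and 7.59 in Scr day 0 arrays, 8.55 and 8.33 at day 2, 8.14 and 7.97 in EglN2 shRNA day 0 arrays, and 8.88 and 8.86 at day 2. The EglN2 shRNA line was higher on both days, and within each line the replicates lay much closer together than the days did. The rise was 0.86 ± 0.08, or 1.81-fold (limma adjusted p 0.0093), and the call was lost without replicate 1 of Scr day 2 (0.0893) or replicate 2 of EglN2 shRNA day 2 (0.0718). SERPINA1, the secreted protease inhibitor alpha-1-antitrypsin, rose by 0.74 ± 0.08 from 8.84 to 9.28 at day 0 to 9.61 to 10.07 at day 2 (limma adjusted p 0.0207).

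Several further genes that are not in the gene lists rose at similar size. PLAAT2, a phospholipid acyltransferase, rose by 0.80 ± 0.11, and replicate 1 of Scr day 0 read 6.05 where the other 3 day 0 arrays read 6.45 to 6.48. ACSM3, a mitochondrial medium-chain acyl-CoA synthetase, rose by 0.68 ± 0.09 from 7.69 to 8.41 at day 0 to 8.47 to 9.06 at day 2. BTN3A2, a butyrophilin of the cell surface that has closely related paralogs, rose by 0.68 ± 0.09, and ULBP1, a ligand of the NKG2D receptor of natural killer cells, by 0.61 ± 0.09. ANKFN1 rose by 0.68 ± 0.10 and ABCC13, an ABC transporter family gene held to be a pseudogene in humans, by 0.62 ± 0.09, from mean levels of 6.12 and 6.79 at day 0. OLFML3, a secreted olfactomedin-like protein, rose by 0.61 ± 0.09, at 0.81 in the Scr line and 0.41 in the EglN2 shRNA line. The limma adjusted p-values of these genes ran from 0.0307 for PLAAT2 to 0.0469 for OLFML3. The called genes outside the rule for named genes, listed after their values were seen, were DOCK11, an exchange factor for CDC42, at 0.59 ± 0.08, SLC41A3, a magnesium transporter, at 0.50 ± 0.07, and CSF2RA, a cytokine receptor chain with 2 probe sets of identical values, at 0.50 ± 0.08.

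The interferon response and antigen presentation list had 35 genes, of which 30 had a positive change, none passed, 11 were higher and 1 lower at an unadjusted p under 0.05, and the median was 0.15. IFIT2, an interferon-induced antiviral protein, read 5.2 to 5.4 at day 0 and 5.54 to 5.85 at day 2, a change of 0.46 ± 0.09 (limma adjusted p 0.0914). IFITM3, another one, had a change of -0.38 ± 0.10, and ISG15, a ubiquitin-like interferon product, one of -0.05 ± 0.12. Among 34 estrogen receptor targets the direction was mixed, with 2 higher past the threshold (SERPINA1 and STC2) and 3 higher and 6 lower at an unadjusted p under 0.05. TFF1, a secreted trefoil peptide, had a change of -0.60 ± 0.10 (limma adjusted p 0.0583), and PGR, the progesterone receptor, one of 0.05 ± 0.10.

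CYP1B1 and NQO1 fell past the threshold in the model of line and day, and no other probe set did so there. Other models of the same 8 arrays called more probe sets lower, such as 10 with a prior variance that follows intensity and 19 with array weights. CYP1B1, a cytochrome P450 that oxidises estrogens and aromatic hydrocarbons, read 11 and 10.92 in Scr day 0 arrays, 9.95 and 10.28 at day 2, 11.14 and 10.86 in EglN2 shRNA day 0 arrays, and 9.96 and 10.26 at day 2. Both lines gave nearly the same values on each day, and the highest day 2 array (10.28) was below the lowest day 0 array (10.86). The change was -0.87 ± 0.11 (95% interval -1.10 to -0.63; limma adjusted p 0.0285), at -0.85 in the Scr line and -0.89 in the EglN2 shRNA line. NQO1, a quinone reductase, is a textbook target of both the aryl hydrocarbon receptor and the antioxidant factor NRF2. It read 12.51 and 12.62 then 11.93 and 11.94 in the Scr line, and 12.60 and 12.55 then 12.07 and 11.97 in the EglN2 shRNA line. The replicates lay within 0.11 of each other in every group, and the change was -0.59 ± 0.07 (limma adjusted p 0.0285).

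The lists that hold these genes leaned downward with few other members far from 0. Of 12 genes of the aryl hydrocarbon receptor pathway 9 had a negative change, 2 fell past the threshold, 3 were lower and none higher at an unadjusted p under 0.05, and the median was -0.08. CYP1A1, a P450 induced by the same receptor, was dim, at 5.83 to 6.06 on day 0 and 5.52 to 5.91 on day 2. Its days overlapped, and its change was -0.24 ± 0.10 (limma adjusted p 0.454). AHR, the receptor, had a change of -0.11 ± 0.08. The probe set of its repressor AHRR, which is shared with PDCD6, had one of -0.06 ± 0.08. Of 24 NRF2 antioxidant targets 18 had a negative change, 1 fell past the threshold (NQO1), 2 were higher and 5 lower at an unadjusted p under 0.05, and the median was -0.09. GCLM, a subunit of the first enzyme of glutathione synthesis, had a change of -0.48 ± 0.12, and the aldo-keto reductases AKR1C1 and AKR1C2, near-identical paralogs, had -0.33 and -0.47, with -0.03 ± 0.09 for a second AKR1C1 probe set. HMOX1, heme oxygenase, had one of 0.02 ± 0.09, and SLC7A11, also in this list, the positive change given above.

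Cytosolic heat shock chaperones had the lowest median of the lists measured, -0.14, although none passed in the model of line and day. Of 20 measured, 15 had a negative change, and 9 were lower and 1 higher at an unadjusted p under 0.05. HSPH1, an HSP110 chaperone, read 11.32 and 10.89 then 10.53 and 10.18 in the Scr line, and 11.46 and 10.96 then 10.45 and 10.17 in the EglN2 shRNA line. In all 4 groups replicate 1 was the higher array, and the days did not overlap. The change was -0.82 ± 0.14 (limma adjusted p 0.066). The probe set shared by HSPA1A and HSPA1B, near-identical HSP70 genes, had a change of -0.83 ± 0.19, and DNAJA1, an HSP40 partner of HSP70, one of -0.44 ± 0.08. CRYAB, a small heat shock protein, had one of 0.39 ± 0.12, at 0.09 in the Scr line and 0.68 in the EglN2 shRNA line.

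**Figure D4:**
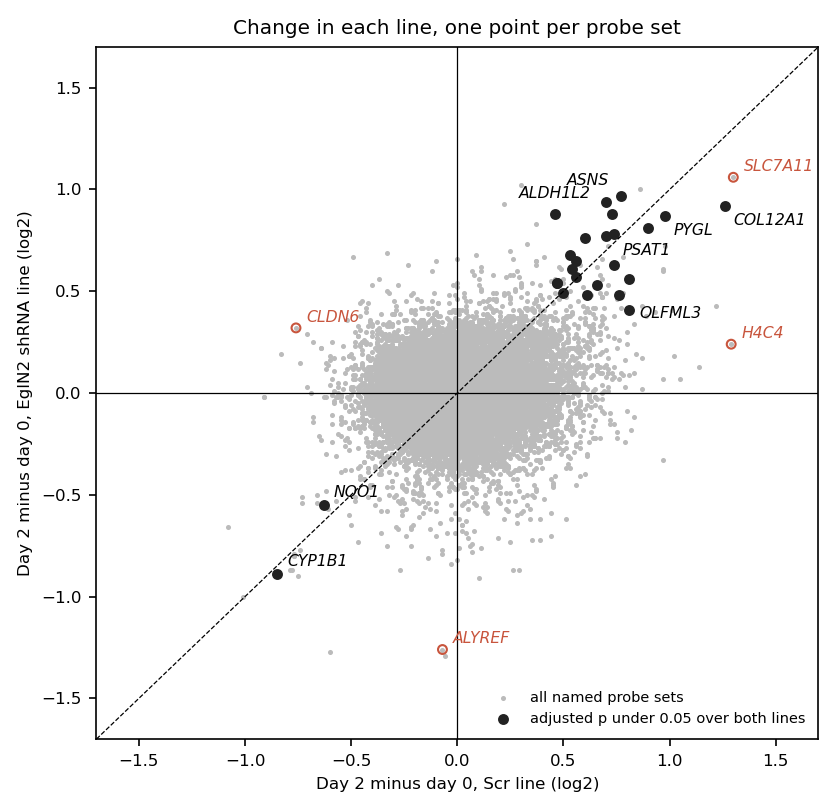
Change from day 0 to day 2 (log2) in the Scr line (horizontal) and in the EglN2 shRNA line (vertical), 1 point for each of 21214 named probe sets, with the 25 called over both lines in black and a dashed line of equal change. The called probe sets lie near the dashed line in the upper right and lower left, while ALYREF, CLDN6 and H4C4 (open circles) lie away from it.

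The lines share no arrays, so a ranking in one line did not use the values of the other. Differences between replicates 1 and 2 correlated across the lines at 0.181 to 0.271. Whether the lines' changes are independent was not tested. Ranked by limma's moderated test in one line alone, the 100 highest-ranked rises of the EglN2 shRNA line had a median change of 0.35 in the Scr line, and 86 of 100 were positive there, against 48% of all probe sets. The 100 highest-ranked rises of the Scr line had a median of 0.19 in the EglN2 shRNA line with 80 of 100 positive, against 51.4%. Taken for each day 2 array of the EglN2 shRNA line against the mean of both its day 0 arrays, that last median was 0.04 for replicate 1 and 0.33 for replicate 2. For falls the medians in the other line were -0.02 for those of the Scr line (52 of 100 negative, against 48.6%) and -0.04 for those of the EglN2 shRNA line (57 of 100, against 52%). Across all probe sets the lines' changes had a correlation of 0.146. Neither line alone gave a call with its 2 against 2 arrays, with 3079 probe sets in the Scr line and 951 in the EglN2 shRNA line at an unadjusted p under 0.05 and smallest limma adjusted p-values of 0.11 and 0.198.

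The difference between the lines' changes passed for no probe set (smallest limma adjusted p 0.165), with 1511 (7.12%) at an unadjusted p under 0.05. Of the 25 called probe sets, 2 were at that level, those of CBS and OLFML3. The median standard error of such a difference was 0.17, so that for PSAT1 the 95% interval of the difference ran from -0.43 to 0.51, for PYGL from -0.52 to 0.31 and for CYP1B1 from -0.53 to 0.44. An average over lines can also hide unequal values. The only probe set that names EGLN2, the hairpin's target, shares its signal with the readthrough gene RAB4B-EGLN2 and read 8.97 and 9 then 8.81 and 8.90 in the Scr line, and 8.85 and 9.04 then 8.26 and 8.29 in the EglN2 shRNA line. Only the EglN2 shRNA day 2 arrays stood apart, and the average change of -0.40 ± 0.11 (limma adjusted p 0.274) was -0.13 in the Scr line and -0.67 in the EglN2 shRNA line. A probe set of RAB4B and its readthrough genes that does not name EGLN2 alone had a change of -0.09 ± 0.10. ALYREF, an mRNA export factor, read 12.05 to 12.18 in all 4 Scr arrays, 12.05 and 12.01 in EglN2 shRNA day 0 arrays, and 10.69 and 10.85 at day 2. CLDN6, a claudin, had a change of -0.76 in the Scr line and 0.32 in the EglN2 shRNA line.

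Cell cycle lists had the largest median differences between the lines' changes (-0.42 for mitosis genes, EglN2 shRNA minus Scr), which were not tested as lists. Of 40 mitosis genes 35 had a positive average change, none passed, and 1 was higher at an unadjusted p under 0.05. The median of 0.11 was 0.29 in the Scr line and -0.08 in the EglN2 shRNA line, and 16 of 40 had an unadjusted p under 0.05 for the difference. Of 48 replication-dependent histone genes, which are transcribed in S phase, 45 had a positive average change, none passed and 8 were higher at that level, with medians of 0.31 and 0.02 in the Scr and EglN2 shRNA lines. For 39 DNA replication genes those medians were 0.16 and -0.07. These medians depended on single arrays. That of mitosis genes was 0.05 without replicate 1 of Scr day 0, 0.07 without replicate 2 of Scr day 2, 0.19 without replicate 1 of EglN2 shRNA day 2 and 0.17 without replicate 2 of EglN2 shRNA day 0. That of histones was 0.09 without replicate 1 of Scr day 0 and 0.24 without replicate 2 of EglN2 shRNA day 0. That of replication genes was -0.03 without replicate 1 of Scr day 0 or replicate 2 of Scr day 2, and 0.09 without replicate 1 of EglN2 shRNA day 2 or replicate 2 of EglN2 shRNA day 0. The medians of serine and folate enzymes (0.23 to 0.30), of cytosolic synthetases (0.15 to 0.19) and of the ATF4 list (0.15 to 0.20) moved less. Histone genes have many near-identical copies, which these probe sets may not separate.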

How the data were processed

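RNA of 8 T47D samples was hybridised to Affymetrix arrays. Per the submitters' processing notes the tools were RMA and Affymetrix Expression Console, and the authors deposited log2 levels. Versions, and any build behind the probe sets, were not given in the sources used here. Quantile normalization within RMA makes array distributions alike, so a shift of most genes in one direction would not show. The deposited values (2.73 to 15.25) were tested as given with limma 3.58.1 in R 4.3.3, with line and day as terms, 5 residual degrees of freedom and Benjamini-Hochberg adjustment over all 21214 named probe sets (19460 with 1 symbol, 1754 with several; 12083 unnamed were left out). With 8 arrays their number limits precision. The genes named were PSAT1, PYGL, CYP1B1 and EGLN2, the 15 largest rises and falls past the threshold that were separated within each line, up to 4 members of each list with the smallest p, and up to 5 each way for the difference of lines; further list members are given as values, and were chosen after their values were seen. Each listed gene was represented by its brightest single-gene probe set. Genes without one, such as CBS and AHRR, were represented by their brightest probe set shared with other genes. The 40 lists (987 genes, 922 measured; the mitochondrially encoded genes had none) and the members were chosen with earlier results of these data known, and no set test was run. Other models, filters, normalizations and left-out arrays were tried.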

Additional observations from a re-analysis of the deposited data

Results flagged for a closer look

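In 11 of 330 groups of 4 arrays (both lines on 1 day, for a named gene), 1 array lay far from the other 3, beside about 5% by chance. At day 0, replicate 1 of Scr was low for GCLM (7.25, others 7.58 to 7.64) and for PLAAT2 (6.05, others 6.45 to 6.48). Replicate 2 of Scr day 0 was low for ULBP1 (7.02, others 7.32 to 7.35). Replicate 2 of EglN2 shRNA day 0 was high for SERPINA3 (7.13, others 6.82 to 6.86) and low for NDUFB10 (10.53, others 10.71 to 10.74). At day 2, replicate 1 of Scr was low for PFKP (10.2, others 10.41 to 10.42) and for DHCR7 (11.58, others 11.85 to 11.86). Replicate 1 of EglN2 shRNA day 2 was high for OR7D4 (7.42, others 7.17 to 7.21) and low for PSMC6 (10.32, others 10.76 to 10.83). Replicate 2 of EglN2 shRNA day 2 was high for PYGL (9.99, others 9.7 to 9.72) and low for SQSTM1 (10.51, others 10.76 to 10.81).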

How the results depend on the processing

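Beside 25 calls over both lines, limma called 76 with the replicate number as a replicate block (55 higher, 21 lower, all 25 kept), 51 with a prior variance that follows intensity (41 higher, 10 lower), 101 with array weights (82 higher, 19 lower), 7 without the line as a covariate, 0 over all probe sets of the table and 0 in each line alone. Leaving out 1 array gave 0 to 46. Each line's replicates as pairs in a replicate block gave 30 (21 higher, 9 lower, 17 kept). With the number as a replicate block the limma adjusted p was 0.00221 for HSPH1 and HSPA1A/HSPA1B, 0.0437 for DNAJA1, 0.0135 for SLC7A11, 0.0267 for TFF1, 0.0421 for TIMP1 and 0.0367 for AARS1, which did not pass without it. Same-numbered arrays of Scr day 0 and Scr day 2 had deviations that correlated at 0.0981, and the other pairs of groups at 0.163 to 0.271, so 5 of 6 pairs of groups exceeded 0.1; as 1 did not, the numbers were not taken to pair the arrays. Group means, a robust prior, single-gene probe sets, a mean level of at least 6, median centring and quantile normalization stayed within 1.5 times (20 to 33). The difference of the lines' changes gave 0 calls except with the intensity-dependent prior (2). The median carried from the 50, 200 and 500 highest-ranked rises of the EglN2 shRNA line was 0.46, 0.30 and 0.16 beside 0.35 for 100, and from its falls -0.05, -0.02 and -0.01 beside -0.04. The causes were not tested. No result reversed. Of the values of single genes and lists, 228 lost the threshold, 63 gained it, 14 moved by over 1 SD and 3705 did none of these.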

Other observations

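Apart from PCK2, described above, no gene of the remaining lists passed limma's test, and their values are given as counts at an unadjusted p under 0.05. Over all probe sets 6.04% were higher and 3.87% lower at that level, and 48.4% had a positive change. Some counts below are near those shares. Of 31 immediate-early genes, which respond to growth factors within minutes, 22 had a negative change, 7 were lower and 1 higher, and the median was -0.09. It was -0.04 without replicate 1 of Scr day 0, and -0.06 to -0.13 without any other array. IER3 had a change of -0.44 ± 0.08 (SE), DUSP5 one of -0.25 ± 0.07, and DUSP6, a phosphatase of ERK, one of 0.44 ± 0.12. Of 23 genes of the TGF-beta and BMP response 5 were lower and 3 higher, with a median of -0.11 (-0.17 in the Scr line and 0 in the EglN2 shRNA line). It was -0.06 without replicate 1 of Scr day 0 or replicate 2 of Scr day 2, and -0.09 to -0.15 without any other array. The BMP targets ID1, ID2 and ID3 had changes of -0.37, -0.29 and -0.46, and TIMP1, an inhibitor of metalloproteinases, one of -0.47 ± 0.08. Of 27 MYC and ribosome biogenesis genes 5 were lower and none higher, with a median of -0.07 (-0.04 without replicate 1 of Scr day 2).

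Lipid synthesis genes had mostly positive changes. Of 20 cholesterol synthesis genes 15 had a positive change and 4 were higher, among them LSS, lanosterol synthase, at 0.38 ± 0.09. Of 16 fatty acid synthesis genes 12 had a positive change and 3 were higher, with FADS1, a fatty acid desaturase, at 0.45 ± 0.09 and SCD, the stearoyl-CoA desaturase, at 0.37 ± 0.10. Of 25 endoplasmic reticulum stress genes 1 was higher, HERPUD1 at 0.37 ± 0.09, and the median was 0.06. The following medians are close to 0 and moved with single arrays. They were 0.08 for 22 p53 targets, 0.05 for 30 autophagy genes, 0 for 22 FOXO targets, -0.04 for 28 proteasome subunits, 0.02 for 10 oxygen-sensing hydroxylases and HIF subunits, and -0.02 for 14 D cyclin, CDK4/6 and inhibitor genes. They were 0.08 for 17 junction genes and 0.07 for 14 genes of pyruvate dehydrogenase control and PEP carboxykinase, where PCK2 was called. Luminal markers had a median of -0.07, with ESR1, the estrogen receptor, at -0.20 ± 0.08 (0.09 ± 0.07 for its second probe set) and KRT7, a keratin, at -0.44 ± 0.10.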
